A study of Mus musculus with 14 samples.

Results

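Selenium enters proteins as selenocysteine, and 10 genes of that pathway were followed here in RNA from Nes-GFP+ bone marrow stromal cells (BMSCs) of leukemic and normal mice. They were 8 selenoprotein genes (Selo, Sepp1, Sepw1, Selk, Selm, Txnrd1, Txnrd2 and Sephs2) and 2 genes of the machinery that inserts selenocysteine (Secisbp2 and Eefsec). The members were chosen by name among the 27099 rows of the count table, and all 10 passed the filter on low counts that left 18152 genes for testing. Selo and Secisbp2 had been picked for their levels in AML against normal Nes-GFP high cells, with those of the low cells known too, so their values in every comparison are a description without a test.

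In iMLL-AF9 mice, doxycycline switches on a human MLL-AF9 transgene through rtTA, which is made from ROSA26, and acute myeloid leukemia (AML) follows. All groups carried a Nes-GFP reporter driven by regulatory elements of nestin, and GFP+ cells without CD45 and CD31 (the paper adds without Ter119, an erythroid surface marker) were sorted after red cell lysis into a Nes-GFP high and a Nes-GFP low population. There were 2 AML high, 4 AML low, 2 normal high and 6 normal low libraries, each from a single mouse or from a pool of 2 mice. The series' design lists 1 more Nes-GFP high sample of each status, which was not analysed here. The labels do not say which libraries were pools and give no age. The normal mice were not leukemic and are not labelled as having received doxycycline. The paper states that its control mice got sucrose water as vehicle, so leukemia and the drug cannot be told apart.

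Selenocysteine is encoded by UGA, which elsewhere ends translation. A hairpin in the 3′ untranslated region of the mRNA, the SECIS element, binds the protein made from Secisbp2, which helps to recruit the elongation factor made from Eefsec together with the selenocysteine tRNA. Selenophosphate, the activated selenium donor for that tRNA, is made by the enzyme from Sephs2, itself a selenoprotein. The family is best known for redox enzymes such as glutathione peroxidases and thioredoxin reductases.

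The codons that set these genes apart are shown with up to 15 coding bases before and 12 after, read 5′ to 3′ on the coding strand from GENCODE M21 transcripts (GRCm38), with the selenocysteine codon in capitals. Selo, Selk, Txnrd1 and Txnrd2 are cut short by their own stop codon, the last 3 letters printed.
Selo: gaactctgtgtaacaTGAtcctcataa
Selk: ccaatggctggtggaTGAggaaggtaa
Txnrd1: ctccagtctggctgcTGAggttaa
Txnrd2: actgtgactggttgcTGAggctaa
Sepw1: gtgtattgtggagctTGAggctataagccc
Selm: gagacctgtggaggaTGAcagttgaatcgc
Sephs2: tccggcatgaagggcTGAggctgcaaggtc
Sepp1, first of 10: cttcttcaagccagcTGAtacttgtgtctt

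In Selo the selenocysteine is codon 665 of 667, and in Selk it is codon 92 of 94. Both thioredoxin reductases carry it as the codon before the last (612 of 613 in Txnrd1 and 526 of 527 in Txnrd2). In the small thioredoxin-fold proteins it stands early, at codon 13 of 88 in Sepw1 and 48 of 145 in Selm, and in Sephs2 it is codon 63 of 452. Sepp1, the secreted selenium carrier of plasma, holds 10 such codons in 380, the first at codon 59 and the last at codon 377. Secisbp2 (858 codons) and Eefsec (583 codons) hold none.

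**Figure D1:**
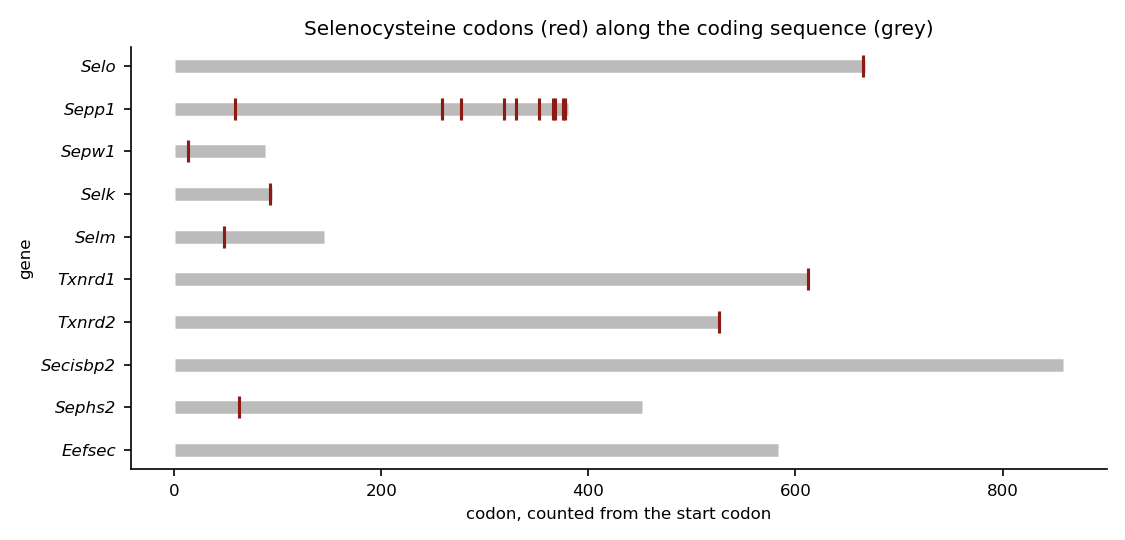
Coding sequence of each of the 10 genes (grey bar, in codons from the start codon) with its selenocysteine codons (red marks). The mark stands at the far end in Selo, Selk, Txnrd1 and Txnrd2, near the start in Sepw1 and Sephs2, and 10 marks lie along Sepp1.

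Libraries held 5615941 to 11436652 counts, and levels below are CPM, counts scaled to library size with TMM factors. The library normal high replicate 1 stood apart, with 14842 genes counted against 18177 to 20197 in the others and 2.27 CPM of Nes, while the other 3 high libraries had 26.7 to 36.0 CPM and the low libraries at most 5.70. The sum of 8 of 8 stromal markers ran from 650 CPM in AML low replicate 3 to 62919 in normal low replicate 2. Sums of 9 of 9 myeloid markers spanned 5308 to 66945 CPM in AML low and 562.5 to 70978 in normal low libraries, with S100a8 and Lyz2 present in every library, and the sorted-out Ptprc (CD45) reached 483 CPM in normal low replicate 4. Sums of 7 of 7 erythroid markers were 11.35 to 1905 CPM in AML low and 384 to 2769 in normal low libraries. Lymphoid markers (6 of 6) summed to at most 1462 CPM and endothelial markers (3 of 5) to at most 47.5. The sorted-out Pecam1 (CD31) reached 47.5 CPM in normal high replicate 1 and 34.4 in normal low replicate 1. Tek was at 0 in 12 libraries. Because these are bulk libraries, fewer cells of a type and less RNA per cell cannot be told apart.

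Selo, the mouse Selenoo gene at chr15:89089084-89100340 (GRCm38, plus strand), encodes a mitochondrial protein with a kinase fold that transfers AMP to other proteins. It had 104.4 and 58.8 CPM in the AML high libraries and 2.52 and 0.993 CPM in the normal high libraries, where these levels rest on 20 and 7 counts. In the low population the AML libraries had 41.0, 27.7, 52.1 and 36.5 CPM, while the 6 normal libraries ran from 9.02 to 25.3 CPM with a median of 12.7. The 4 groups therefore did not overlap in Selo, and their order was AML high, AML low, normal low and normal high. The closest neighbours in that order were AML low replicate 2 at 27.7 and normal low replicate 2 at 25.3 CPM. Within groups the spread (SD over mean) was 25.8% over the 4 AML low and 42.4% over the 6 normal low libraries.

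AML against normal, the difference in Selo was 5.52 ± 0.97 (log2, SE; 46.0-fold) in the high population and 1.40 ± 0.51 (2.65-fold) in the low population. Leaving out each library in turn gave 4.96 to 6.44 and 1.24 to 1.62 on the log2 scale. The first was 6.44 without normal high replicate 1, the library with few Nes reads. As a ratio of summed counts the high difference was 44.2, with a 95% interval of 30.3 to 67.3 that covers counting error only. Between populations the sign differed: high against low, Selo was at -3.07 ± 0.80 (log2) in normal and at 1.05 ± 0.67 in AML cells. Libraries did not overlap, with AML higher, for 16% of the 18152 genes in the high population and for 0.441% in the low population. All 6 AML libraries lay above all 8 normal libraries in 18 genes (0.0992%), of which Selo, chosen with these values known, was one.

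**Figure D2:**
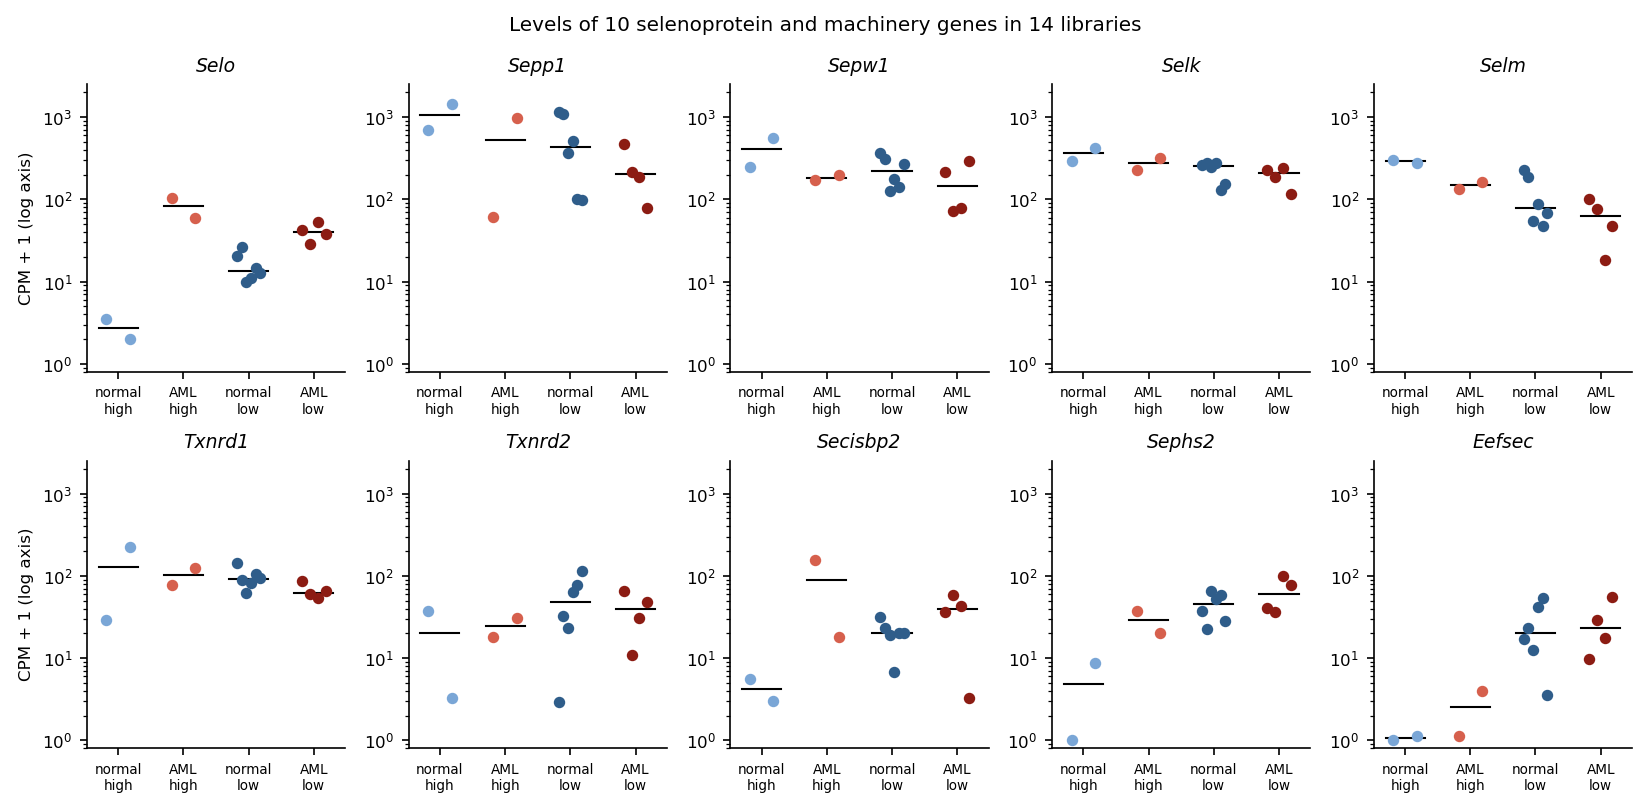
CPM + 1 (log axis) of the 10 members in each of the 14 libraries, by group (points: libraries; black line: group median). Selo is the member whose 6 AML libraries all lie above the 8 normal ones, while the 4 Nes-GFP high libraries of Eefsec lie at or near the bottom of the axis.

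Marker sums of other cells varied beside Selo, and their part in its difference was not tested. AML low replicate 3 and normal low replicate 3, which had the highest myeloid sums of their groups (66945 and 70978 CPM), had 52.1 and 9.02 CPM of Selo. Among normal low libraries Selo was highest in replicates 1 and 2 (19.4 and 25.3 CPM), whose stromal sums of 61783 and 62919 CPM were also the highest, while the other 4 had 9.02 to 13.5 CPM. AML low libraries had 27.7 to 52.1 CPM of Selo at stromal sums of 650 to 26868 CPM. Erythroid markers moved with status: the sums were 8.27 to 114 CPM in 5 of the 6 AML libraries and 127 to 2769 CPM in the 8 normal ones. AML low replicate 4, the sixth, had a sum of 1905 CPM and 36.5 CPM of Selo. Slc4a1, the anion exchanger of red cells, was at 0 to 0.105 CPM in the 6 AML libraries and at 0.993 to 79.6 CPM in the 8 normal ones.

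The transcript of Tubgcp6, a component of the gamma-tubulin ring complex, overlaps Selo exons on the opposite strand over 510 bases, and without a stated strand setting reads there cannot be assigned. Tubgcp6 was at 0 and 20.5 CPM in AML high and 0 and 0.567 CPM in normal high libraries. Its AML low range of 0 to 12.5 CPM overlapped its normal low range of 10.5 to 35.7 CPM. The part of its reads in the Selo counts was not tested. Exons of other members are overlapped likewise, over 439 bases in Sepp1 (Ccdc152), 792 in Sephs2 (Gm44729) and 308 in Eefsec (Gm44264).

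Across the 14 libraries the genes most like Selo, among 10758 others with a mean of at least 10 CPM, were Chd2, Acads, Nf1, Igsf8 and Slc39a11, by the correlation of log2(CPM + 1) (0.861, 0.860, 0.853, 0.853 and 0.841, in that order; a description over libraries that share groups and depth). All 5 were low in the normal high libraries, with means of 0.630 CPM (Nf1) to 4.15 CPM (Igsf8). Choosing them by likeness to Selo in these same libraries favours such patterns. Acads, a mitochondrial fatty acid dehydrogenase, had means of 51.9 CPM in AML high, 33.1 in AML low and 31.3 in normal low libraries. The low means of Selo were 39.4 ± 10.2 and 14.9 ± 6.30 CPM (SD). Slc39a11, a zinc transporter, had 44.6 to 89.0 CPM over the 6 AML libraries and 0 to 42.8 CPM over the 8 normal ones, which did not overlap either. Chd2, a chromatin remodeller, had means of 67.3 CPM in AML low and 29.8 in normal low libraries.

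Secisbp2, Sephs2 and Eefsec were low in the normal high libraries as well. Other genes of selenocysteine synthesis and insertion went both ways. Alkbh8 had 0.504 and 2.13 CPM in these libraries, while Trnau1ap had 111.6 and 53.3 CPM. Pstk, the kinase that acts on the seryl-tRNA, had 69.0 and 84.0 CPM in them and at most 31.6 CPM in normal low libraries. Such a higher level without overlap was seen for 3.47% of genes. Pstk and Trnau1ap are named after their values were seen. Secisbp2 (chr13:51651697-51684044) had 4.54 and 1.99 CPM in the normal high libraries and 157 and 17.2 CPM in the AML high libraries. In low cells it ran from 2.28 to 56.9 CPM over 4 AML libraries (35.3, 56.9, 41.7 and 2.28) and from 5.87 to 30.6 CPM, with a median of 19.1, over 6 normal libraries, so that the low groups overlapped through AML low replicate 4. The fitted difference was 4.73 ± 1.46 (log2) in high and 0.83 ± 0.79 in low cells. One library carried much of the first value, which was 2.36 without AML high replicate 1 and 4.20 to 5.54 without any other high library.

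Sephs2 (chr7:127271879-127274055, minus strand) was at 0 and 7.80 CPM in the normal high libraries and at 36.7 and 19.5 CPM in the AML high libraries. Low cells had 35.1 to 97.8 CPM in AML and 21.8 to 64.7 CPM in normal mice, and these ranges overlapped. High against low normal cells, the difference was -3.47 ± 1.36 (log2; edgeR adjusted p = 0.386, DESeq2 adjusted p = 0.0104). It was -2.62 without normal high replicate 1, the library at 0. In AML mice it was -1.16 ± 1.21 (edgeR adjusted p = 0.802).

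Eefsec (chr6:88257334-88446539, minus strand) was the member with the fewest reads in Nes-GFP high cells of either status. It had 1 and 28 counts in the AML high libraries and 0 and 1 in the normal high ones, against 85 to 334 counts in AML low and 25 to 561 in normal low libraries. In CPM the low cells had 8.77 to 54.4 in AML and 2.53 to 52.5 in normal mice. As ratios of summed counts, high over low was 0.0686 (95% counting interval 0.0457 to 0.0992) in AML and 0.00267 (6.76e-05 to 0.0149) in normal mice. These comparisons share no library, and in each of them the high libraries lay apart from the low ones, as for 8.83% of genes that were lower in AML high and 7.86% that were lower in normal high cells. In AML mice the fitted value was -4.12 ± 1.60 (log2), with an adjusted p of 0.527 by edgeR and 0.0194 by DESeq2. In normal mice the adjusted p was 0.235 by edgeR and 0.000199 by DESeq2, which called 9.03% of all genes lower there. With a single count in the normal group, the AML to normal ratio in high cells was 24.6 with an interval of 4.09 to 1007, and in low cells the difference was 0.15 ± 0.95 (log2).

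The secreted Sepp1, the endoplasmic reticulum members Selm and Selk, and also Sepw1 and Txnrd1 had lower mean levels in AML than in normal libraries. This held in both populations, without a call. Sepp1 (chr15:3268547-3280508), the plasma selenium carrier, had 59.7 and 989 CPM in the AML high libraries, against 694 and 1437 CPM in the normal high ones. In low cells the AML libraries had 473, 217, 188 and 76.7 CPM and the normal ones 97.5 to 1168 CPM, with a median of 439. The groups overlapped in both populations, and the low difference was -1.22 ± 0.87 (log2, edgeR adjusted p = 1). AML high replicate 2 set the high values: AML against normal was -1.02 ± 1.31 with it and -4.19 without it, and high against low in AML turned from 1.14 to -2.01. The stromal sum was 4590 CPM in AML high replicate 1 and 37686 in replicate 2. In the 2 normal low libraries with over 1000 CPM of Sepp1 (1168 and 1098) it was 61783 and 62919. Other libraries broke this order. Normal low replicate 6 had a sum of 12818 CPM and 97.5 CPM of Sepp1, against 4717 and 367 CPM in replicate 3. AML low replicate 4 had 5738 and 76.7 CPM, against 650 and 188 CPM in replicate 3. Normal high replicate 1 had 59679 and 694 CPM. The part of stromal content in these differences was not tested.

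**Figure D3:**
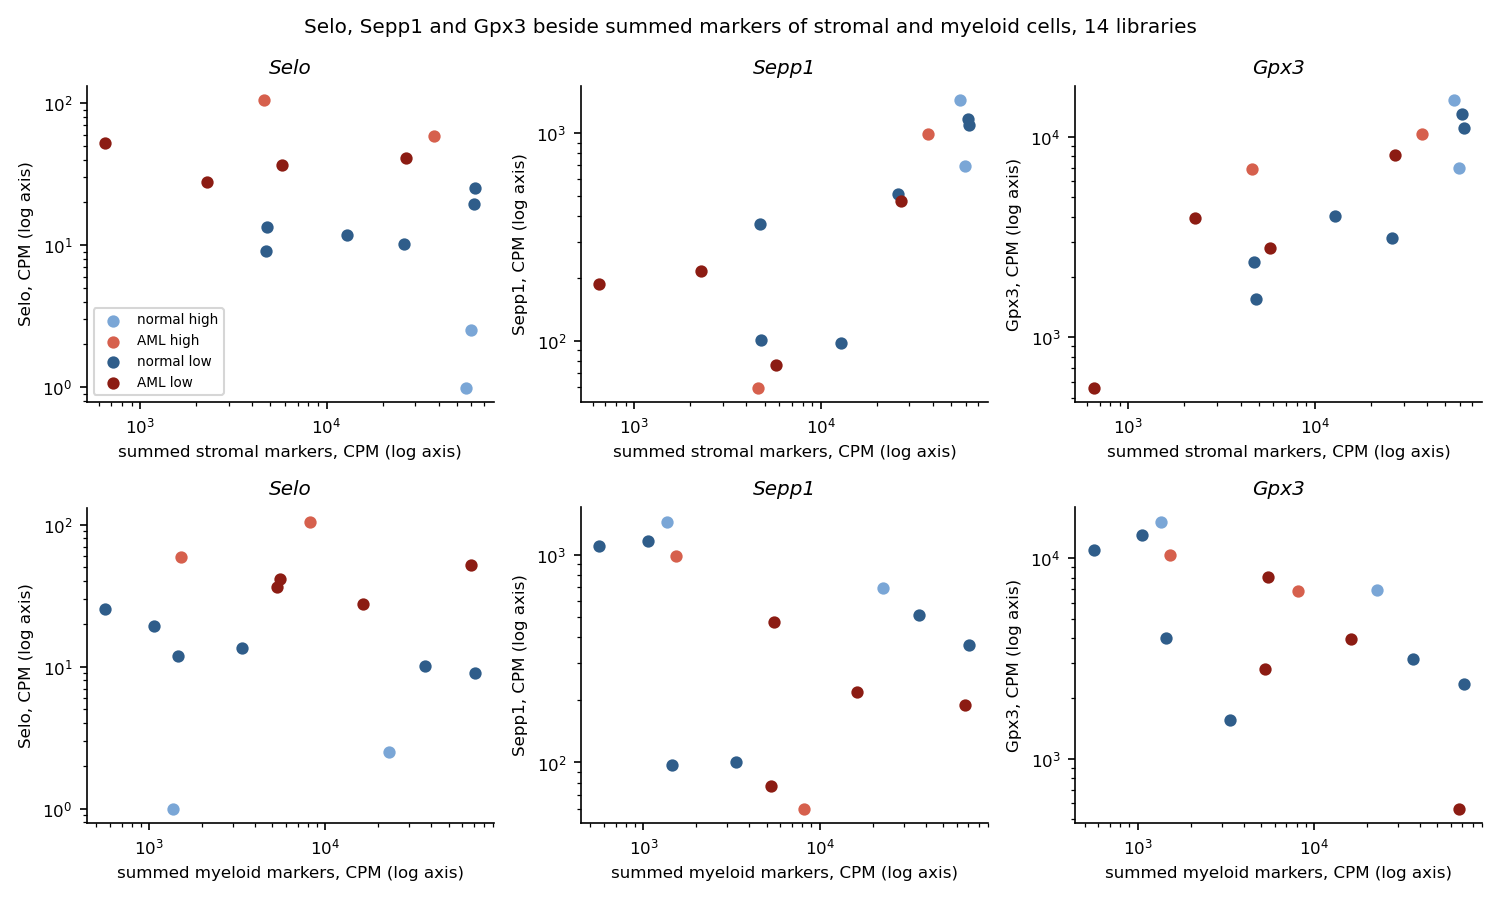
CPM of Selo, Sepp1 and Gpx3 (y, log axis) against the summed CPM of stromal markers (upper row) and myeloid markers (lower row, x, log axis) in 14 libraries, coloured by group. Sepp1 and Gpx3 are highest in libraries with the highest stromal sums, while Selo in each AML library lies above Selo in each normal one; no AML library has a stromal sum over 37686 CPM, where 4 normal libraries lie.

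Selm (chr11:3514684-3517351), a thioredoxin-like protein of the endoplasmic reticulum lumen, was higher in high than in low cells in mice of both statuses. It had 302 and 279 CPM in normal high against 46.8 to 229 CPM in normal low libraries, and 134 and 163 CPM in AML high against 100.5, 76.4, 17.2 and 46.4 CPM in AML low libraries. Neither comparison overlapped, as for 3.47% of genes higher in normal high and 6.91% higher in AML high cells. The differences were 1.38 ± 0.67 in normal and 1.30 ± 0.73 in AML mice (log2, edgeR adjusted p = 0.458 and 0.591), and without any single library they stayed between 0.99 and 1.72. AML high lay below normal high, at -0.97 ± 0.89 (log2), again without overlap, as for 11.5% of genes that were lower in AML high cells. In low cells the AML and normal libraries overlapped, with a difference of -0.89 ± 0.58 (adjusted p = 1).

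Selk (chr14:29968308-29975662), a membrane protein of the endoplasmic reticulum that works with the palmitoyltransferase Zdhhc6, was the steadiest of the members, with 116.5 to 426 CPM over all 14 libraries. Its AML and normal ranges overlapped in both populations, and the low difference was -0.22 ± 0.35 (log2, edgeR adjusted p = 1). Sepw1 (chr7:15917208-15922402, minus strand) had 169 and 198 CPM in AML high and 249.5 and 561.5 CPM in normal high libraries. These did not overlap, as for 11.5% of all genes that were lower in AML high cells. In low cells the AML range of 70.4 to 291 CPM overlapped the normal range of 127 to 366 CPM, with a difference of -0.50 ± 0.50 (log2, edgeR adjusted p = 1).

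The thioredoxin reductases, which reduce thioredoxin in the cytosol (Txnrd1) and in mitochondria (Txnrd2), showed no separation by status. Txnrd1 (chr10:82833951-82897712) had 53.6 to 86.2 CPM in AML low and 60.4 to 142 CPM in normal low libraries, a difference of -0.52 ± 0.51 (log2, edgeR adjusted p = 1). Of its high libraries, AML replicates had 75.6 and 125 CPM and normal replicates 28.4 and 224 CPM, and the AML difference of -0.33 ± 0.78 became 1.78 without normal high replicate 2. Txnrd2 (chr16:18426384-18479073) spread more widely, from 1.93 to 113 CPM over the 6 normal low libraries and from 9.80 to 64.2 CPM over the AML low ones. The AML high libraries had 17.1 and 29.9 CPM and the normal high libraries 35.9 and 2.27 CPM, and the difference of 0.30 ± 1.44 became 3.48 without normal high replicate 1.

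Per comparison the edgeR quasi-likelihood test called 0 of the 10 members and 0% of all genes (Benjamini-Hochberg adjusted p under 0.05). Of the 8 members other than Selo and Secisbp2, 0 had an unadjusted p under 0.05 in AML against normal low cells, beside 5.54% of all genes, and DESeq2 called 0 of them there beside 0.65% of all genes. The medians of the 10 members were -0.33 (log2) for AML against normal low cells, where the median of all genes was 0.00, and -0.50 for high against low normal cells, where it was -0.27. In AML mice the median high to low difference was 0.56 over members and -0.11 over all genes. These medians include Selo and Secisbp2, which were chosen with their values known, and are descriptions without a test. Of the same 8, DESeq2 called 2 (Sephs2 and Eefsec) lower in high than in low normal cells, beside 9.03% of all genes, and 1 (Eefsec) lower in high than in low AML cells, beside 5.49% of all genes.

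**Figure D4:**
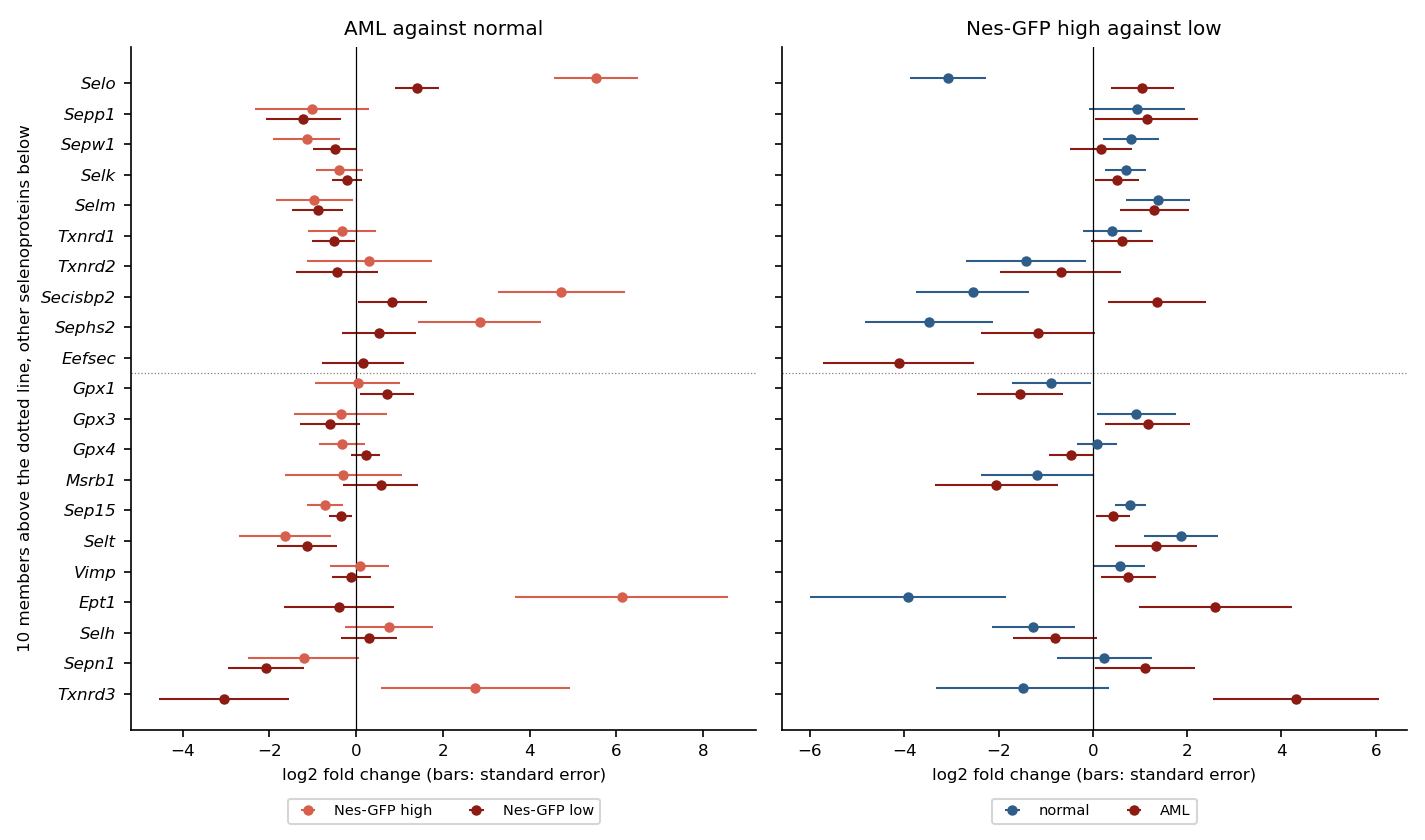
Log2 fold changes (points) with standard errors (bars) from edgeR for the 10 members and 11 other selenoproteins, AML against normal (left) and Nes-GFP high against low (right). Selo is at 5.52 and 1.40 on the left, and Eefsec has no point where the normal high group held a single count.

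Of 16 other selenoprotein genes searched, 13 had a row and 12 passed the filter. Selt and Sep15, further proteins of the endoplasmic reticulum, were like Selm in direction. Selt had 47.3 and 104.8 CPM in normal high against 5.71 to 41.6 CPM in normal low libraries. In AML mice it had 20.4 and 27.9 CPM in high against 4.07 to 13.03 CPM in low libraries. Neither comparison overlapped, as for 3.47% of genes higher in normal high and 6.91% higher in AML high cells. Its differences were 1.87 ± 0.78 and 1.34 ± 0.86 (log2, edgeR adjusted p = 0.408 and 0.622). Sep15 had 1114 and 803 CPM in normal high and 442 to 650 CPM in normal low libraries (0.80 ± 0.33, edgeR adjusted p = 0.40, DESeq2 adjusted p = 0.0380), while its AML libraries overlapped. Ept1, an ethanolamine phosphotransferase, had 92.2 and 7.01 CPM in AML high and 0.126 and 1.28 CPM in normal high libraries, the latter from 1 and 9 counts (edgeR adjusted p = 0.368, DESeq2 adjusted p = 0.0189, a call made for 5.21% of all genes).

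In low cells 4 of the 12 were higher and 8 lower in AML, with a median of -0.38 (log2), and edgeR and DESeq2 called none of them. Sepn1, another protein of that compartment, had 4.73 to 35.9 CPM in AML low and 10.4 to 201 CPM in normal low libraries, and its difference of -2.08 ± 0.88 was the only one with an unadjusted p under 0.05 (0.0337, adjusted p = 0.833 by edgeR). Txnrd3, the thioredoxin reductase of testis, had 0.163 to 5.30 CPM in AML low and 4.16 to 28.7 CPM in normal low libraries (-3.04 ± 1.5, edgeR adjusted p = 0.971). Vimp, Selh, Msrb1, Gpx1 and Gpx4 overlapped between AML and normal low libraries.

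Levels can be set side by side between genes only per exon length. Gpx3, the secreted glutathione peroxidase, was first in all 4 groups, with medians of 1859 CPM per kb in AML low and 1970 in normal low libraries. Gpx1, the cytosolic glutathione peroxidase, followed in low cells with 798 and 546 CPM per kb. Sepw1 was the highest member, with 198 and 303 CPM per kb, and its range overlapped that of Gpx1 in normal low but not in AML low libraries. Selo stood in place 13 of 23 selenoprotein and machinery genes in AML low cells (median 10.4 CPM per kb, range 7.40 to 13.9) and in place 20 in normal low cells (median 3.38, range 2.41 to 6.77). Secisbp2 was close to it on this scale in both groups, at 8.32 and 4.12 CPM per kb with overlapping ranges.

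**Figure D5:**
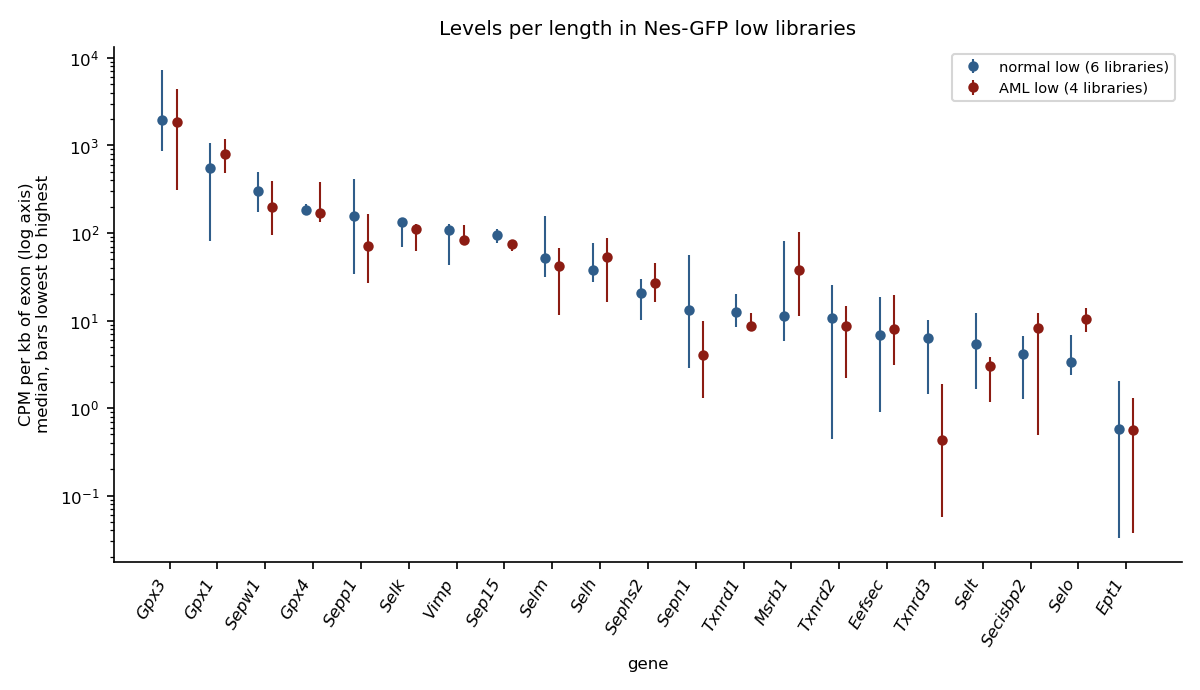
CPM per kb of exon (log axis) of 21 selenoprotein and machinery genes in Nes-GFP low libraries, as median (point) and lowest to highest library (bar), for 6 normal and 4 AML libraries. Gpx3 is highest in both groups, and the AML and normal bars do not overlap for Selo.

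Around the members, 6 lists joined held 59 pathway genes, of which 55 had a row and 54 were tested. In low cells 20 were higher and 34 lower in AML, the median was -0.21 (log2) beside 0.00 over all genes, and edgeR and DESeq2 called none. In 13 of 13 genes of selenocysteine synthesis and insertion tested, 3 were higher and 10 lower in AML low cells, with a median of -0.41 and no call. Elavl1, an RNA-binding protein, had 33.4 and 5.39 CPM in normal high against 77.6 to 220.0 CPM in normal low libraries (-2.61 ± 0.76, edgeR adjusted p = 0.279, DESeq2 adjusted p = 0.00184), and its AML high libraries (88.7 and 104.8 CPM) lay within its AML low range of 49.9 to 112.3. DESeq2 also called Elavl1 higher in AML than in normal high cells, beside 5.21% of all genes (2.32 ± 0.82, edgeR adjusted p = 0.321, DESeq2 adjusted p = 0.0356). Alkbh8, which modifies the selenocysteine tRNA, had 0.504 and 2.13 CPM in normal high against 2.20 to 84.7 CPM in normal low libraries (-4.78 ± 1.79, edgeR adjusted p = 0.369, DESeq2 adjusted p = 0.00504).

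The remaining lists gave few calls, all of them by DESeq2. Over all genes it called 5.21% higher in AML than in normal high cells. It called 9.03% lower in high than in low normal cells and 5.49% lower in high than in low AML cells. Of 9 cysteine homologues and thioredoxins, Msrb2, a mitochondrial methionine sulfoxide reductase, was called higher in AML high cells (61.5 and 0.314 against 0 and 0.709 CPM, DESeq2 adjusted p = 0.0135), a fitted difference that was -0.16 (log2) without AML high replicate 1. In the Nrf2 pathway, Gclc and Gclm, the subunits of glutamate-cysteine ligase, were called lower in high than in low normal cells (DESeq2 adjusted p = 0.00935 and 0.0413), and Gclc also in AML cells (0.00881), with at most 1.56 CPM in the 4 high libraries. None of the 6 partners of endoplasmic reticulum selenoproteins and none of the 4 genes of selenium uptake and binding tested was called. Derl2, part of the channel for misfolded proteins, and its ATPase partner Vcp had the smallest p of the first list in low cells (-1.30 ± 0.67 and 0.49 ± 0.30, log2, edgeR adjusted p = 1 for both). Selenbp1 and Selenbp2, near-identical copies between which reads may be split, differed by 0.75 ± 0.72 and 0.69 ± 0.80 there. AML low replicate 4 held 278 and 112 CPM of them. Leaving out 1 library brought the differences as low as -0.59 and -0.858 (log2).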

How the data were processed

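RNA of sorted cells was amplified by Smart-seq2. Per the labels, reads were trimmed with Trim Galore 0.4.1, aligned with TopHat2 2.1.0 to mm10 and counted with featureCounts, and the paper names Ensembl 86. The authors deposited raw counts per gene symbol. The strand setting is not given in the sources used here. Of 16 library columns, 2 match no sample given here and were not used. The series' design lists their names in the Nes-GFP high groups, 1 of each status, so that those groups hold 2 libraries here. Positions and codons come from GENCODE M21, matching older symbols.

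The 14 libraries were fitted in 4 groups with edgeR 4.0.16 (quasi-likelihood, TMM, filterByExpr, minimum count 10, two-sided, Benjamini-Hochberg adjustment over 18152 genes) in R 4.3.3. SEs are the log2 fold change over the root of F. Alternatives were DESeq2 1.42.0, limma voom (limma 3.58.1) with quality weights, DESeq2 size factors, other filters, only the groups compared, a replicate block and leaving out each library. The scripts were tested on simulated data. In a chi-square test of counts over genes, 23 pairs of replicates all differed beyond counting error (89.7 to 388 per degree of freedom). Replicates are separate samples by label. Reads carry no molecular identifiers, so that intervals cover counting error only. In the smallest library (5615941 counts) 1 count is 0.163 CPM.

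Genes named are the members, the other selenoproteins with a row, of each other list the genes called by edgeR or DESeq2 (at most 4) or else 2 with the smallest p in low cells, the 5 genes most like Selo, overlapping genes and markers. The members and lists were chosen with earlier results of these data known.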

Additional observations from a re-analysis of the deposited data

Results flagged for a closer look

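Over 45 groups of 4 or 6 libraries examined, 2 single libraries lay far from the rest of their group, and chance gives about 1 in 20. Dio2, a thyroid hormone deiodinase with 2 selenocysteine codons, had 11.05 CPM (109 counts) in normal low replicate 3, the highest of its group, whose median was 1.29 CPM. Dio3, the inactivating deiodinase, had 4.727 CPM (50 counts) in normal low replicate 2 and 0 in the 5 other normal low libraries. The high libraries held no count of Dio2 and at most 1 of Dio3. None of the 10 members had such a library.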

How the results depend on the processing

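Numbers of called genes depended on the tool. DESeq2 in place of edgeR called 1593 genes for AML against normal high cells, 118 for low cells, 1737 for high against low normal cells, 1090 for high against low AML cells and 768 for the difference of the AML effects, against 0 in each by edgeR, where 2209, 1006, 2042, 1629 and 1808 genes had an unadjusted p under 0.05. Among pathway genes other than the members it called 3, 0, 6, 1 and 1. A mean of at least 10 CPM left 1 call in AML against normal high cells (Gbf1), and limma voom gave 1 in high against low AML cells (Fam186a), both named after their values were seen. Leaving out single libraries gave 0 to 194 called genes for AML against normal high cells, 0 to 0 for low cells, 0 to 189 for high against low normal cells, 0 to 1 for high against low AML cells and 0 to 144 for the difference, and 0 to 2, 0 to 0, 0 to 2, 0 to 0 and 0 to 2 of the pathway genes. The 194, 189 and 144 calls came without normal high replicate 2. The cause was not tested. With the replicate block 0 genes were called in any comparison. Same-numbered libraries correlated by -0.164 to 0.43 over 14 pairs, most of them between AML and normal mice, and the numbers were not used as a pairing. The labels do not say whether high and low cells came from the same mice. These correlations cannot tell, and the main fit treats the libraries as independent. Of 839 fold changes of the members under the alternatives, 818 stayed within 1 SE and 16 had another sign. For Selo 83 of 84 stayed within 1 SE and 0 changed sign. With 2 libraries per high group, the pooled spread of all 4 groups stands behind their SEs.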
